A study of Mus musculus with 2 samples.

Results

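The 10 genes described here encode proteins that cells of the lung surface, and some leukocytes, secrete against microbes and in the course of injury: the lysozymes Lyz1 and Lyz2, the iron-siderophore binding lipocalin Lcn2, the leucine-rich glycoprotein Lrg1, the resistin-like protein Retnla, the chitinase Chia1 and the chitinase-like Chil1, the whey acidic protein (WAP) domain proteins Slpi and Wfdc2, and the C-type lectin Reg3g. They were taken by symbol from the gene table of the deposited counts, and all 10 were found among its 27998 genes. Each had at least 20 unique molecular identifiers (UMIs, 1 for each captured RNA molecule) over the libraries. The study profiled mouse lungs at postnatal day 10 by droplet-based single-cell RNA sequencing of sorted epithelial, immune, endothelial and mesenchymal cells. Its question, by its title, is how the homeobox factor Nkx2-1 controls the development and upkeep of alveolar type 1 (AT1) cells. The control group is 1 library whose genotype is given as control, and the mutant group is 1 library whose genotype is given as mutant and whose title names Nkx2-1 together with Aqp5, a gene expressed in AT1 cells and some airway cells. The labels used here do not state the deleted part of Nkx2-1, the recombinase, its driver or the number of animals. With 1 library a group there is no replicate and no test: the intervals below cover counting error in that library only, and a difference between libraries cannot be told apart from one between genotypes.

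Alveolar type 2 (AT2) cells make surfactant and, with it, release lysozyme and other antibacterial proteins into the fluid that lines the alveoli. In the airways, club cells secrete secretoglobins, chitinases and antiproteases, while ciliated cells move the film along. Lcn2 and Lrg1 are also known as acute-phase genes, Lcn2 and Slpi as products of neutrophils, and Lyz2 as a general product of macrophages and neutrophils.

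The lysozyme genes are neighbours on chromosome 10. In the GENCODE M21 annotation of GRCm38, Lyz1 lies at chr10:117287797-117292868 and Lyz2 at chr10:117277331-117282321, both on the minus strand and 5476 bases apart. Their coding sequences are 444 bases each and differ at 22 positions, an identity of 95.0%. Coding bases 355 to 444 are shown because each lysozyme value rests on telling the pair apart, with the 2 differences of this stretch in capitals.
Lyz1: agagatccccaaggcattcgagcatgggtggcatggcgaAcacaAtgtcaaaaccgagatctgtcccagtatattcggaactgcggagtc
Lyz2: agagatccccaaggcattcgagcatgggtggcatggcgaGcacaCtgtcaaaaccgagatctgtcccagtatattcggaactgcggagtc
Of the 1140 windows of 124 bases (the length of the cDNA read) in the Lyz1 transcript and the 1193 in the Lyz2 transcript, 0 were identical between the transcripts. A full-length exact read could therefore be assigned to 1 of the pair, although shorter or mismatched alignments could still be lost or swapped. The WAP domain genes Slpi (chr2:164354070-164389095, minus strand) and Wfdc2 (chr2:164562413-164568510, plus strand) are 173318 bases apart on chromosome 2, and Lcn2 is at chr2:32384633-32388252 on the minus strand. The remaining genes are Lrg1 at chr17:56119678-56122001 (minus), Retnla at chr16:48842551-48844461 (plus), Chil1 at chr1:134182176-134190181 (plus), Chia1 at chr3:106113229-106132120 (plus) and Reg3g at chr6:78466269-78468872 (minus).

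The control library held 29862980 UMIs in 4461 cell barcodes and the mutant library 47271104 in 4551. After the filters 4002 control and 4244 mutant cells were used, and 27 barcodes occurred in both libraries. Clusters were found without the 10 genes and without the other defence genes listed for this work. AT2-like cells numbered 1227 in the control and 210 in the mutant library (median 7285 and 7087 UMIs a cell). Airway cells numbered 150 (39 club-like, 111 ciliated-like) and 81 (23 and 58). All other epithelial cells form the group called here the AT1 compartment, with 606 control cells, 513 of them AT1-like, and 2272 mutant cells, 6 of them AT1-like. The rest of its mutant cells sit in clusters left unnamed. Cluster 1 (573 mutant and 0 control cells) met the rule for goblet-like cells with 3 markers seen, but that name was set aside by hand. Its leading genes were Agr2, Spink4, Ttr, Apoa1, Tff2 and Tff1, of which only Agr2 is a marker in that list. This was not done for every cluster: AT2-like cluster 9 kept its name with 12 markers seen and 0 among its 10 leading genes. In the compartment the summed level of 12 AT1 markers was 34744 CPM (the UMIs of a gene scaled to 1000000 UMIs of the class) in the control and 3200 in the mutant library. Cell numbers also reflect how sorted fractions were loaded and are not compared. The level of Nkx2-1 itself, a check of the labels, was 483 and 14.7 CPM in the compartment, 346 and 308 in AT2-like cells and 199 and 112 in airway cells. Sftpc, an AT2 surfactant gene, was also counted in endothelial cells, at 3187 CPM in the control and 216 in the mutant library, so AT2 RNA outside AT2-like cells differed between the libraries.

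Across cell classes the genes fell into different patterns, and the name AT2 and airway fits only some of them. Lyz1 was highest in AT2-like cells of both libraries, at 2622 and 4325 CPM, and no other class passed 113. Lyz2 was highest in a myeloid cluster that carries both neutrophil and monocyte markers and was left unnamed, at 21619 CPM (95% Poisson interval 21050 to 22199) in the control and 23304 (22653 to 23969) in the mutant library. AT2-like cells followed in the control library with 8691 CPM, then alveolar macrophage-like cells with 4745, and in the mutant library these changed places, with 13157 in the macrophage-like and 9593 in AT2-like cells. Lyz2 thus marked myeloid cells as well as AT2-like cells, whereas Lyz1 was in neither myeloid class above 72.1 CPM.

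**Figure D1:**
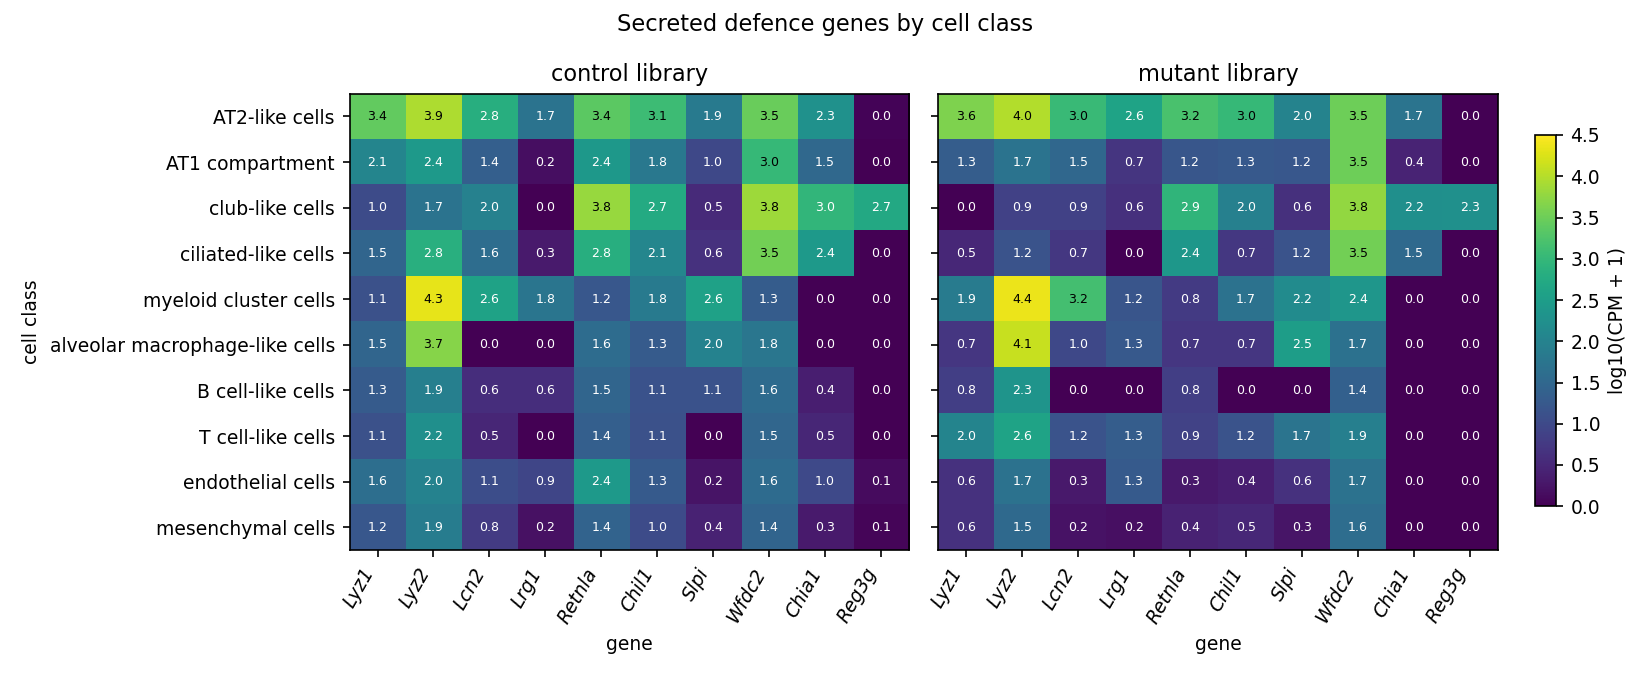
Level of each gene (columns) in each cell class (rows) in the control and the mutant library, coloured and printed as log10(CPM + 1) of the summed UMIs. Lyz1, Lyz2, Lcn2 and Chil1 stand out in the AT2-like row, Retnla, Chia1, Wfdc2 and Reg3g in the club-like row, and Lyz2 also in the myeloid rows. The scale does not correct for gene length, so colours are read down a column.

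Lcn2 was highest in AT2-like cells of the control library (658 CPM) and in the myeloid cluster of the mutant library (1451 CPM, with AT2-like cells at 1107). Chil1 was highest in AT2-like cells of both libraries, at 1236 and 1022 CPM, followed by club-like cells at 553 and 89.7. Lrg1 in the control library did not differ beyond counting error between the myeloid cluster (55.3 CPM, 30.2 to 92.8) and AT2-like cells (49.9, 45.5 to 54.6), and in the mutant library AT2-like cells were alone at 402 CPM, with no other class above 20.1. Slpi, an inhibitor of neutrophil elastase, was highest in the myeloid cluster of the control library (367 CPM) and in alveolar macrophage-like cells of the mutant library (316 CPM), and AT2-like cells (72.0 and 101 CPM) had counting intervals that overlapped that of the class ranked before them in both.

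The other genes led in club-like cells. Wfdc2 was at 7046 and 5946 CPM there. In the mutant library ciliated-like cells (3423 CPM), the AT1 compartment (3250) and AT2-like cells (3220) came next, with counting intervals that overlapped between neighbours in the order. Chia1, an acidic chitinase, was at 931 and 176 CPM in club-like cells and had 0 UMIs in the myeloid cluster and in macrophage-like cells of both libraries. Retnla was at 6348 CPM in club-like and 2335 in AT2-like cells of the control library, and in the mutant library the order was turned, with 868 and 1584. Reg3g, a lectin that binds Gram-positive bacteria, was seen in club-like cells (428 and 56 UMIs) and otherwise with 1 UMI each in AT2-like, endothelial and mesenchymal cells of the control library.

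In AT2-like cells, Lrg1 was 8.06-fold higher and Chia1 3.61-fold lower in the mutant library, and these were the only ones of 9 measured genes past 2-fold. Reg3g, with 1 and 0 UMIs there, was too sparse to measure. Over all 10522 genes with at least 20 UMIs in the class, 7.46% were at least 2-fold higher and 4.83% at least 2-fold lower, and 1 gene of 9 each way is near that background. The median log2 ratio of the 9 was 0.15, against 0.19 for all genes. That shift of 0.19 touches the small differences: 6 genes were higher and 3 lower by CPM, and 4 higher and 5 lower once it was subtracted, with Lyz2 (log2 ratio 0.14) and Wfdc2 (0.15) crossing over. By the same subtraction the split of all genes past 2-fold went to 4.95% higher and 7.10% lower.

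By CPM both lysozymes were higher in mutant AT2-like cells, Lyz2 by less than the shift of all genes. Lyz1 had 24637 UMIs in control and 7136 in mutant AT2-like cells, which is 2622 and 4325 CPM, or 1.65-fold higher (95% counting interval 1.61 to 1.69). Lyz2 had 81649 and 15827 UMIs, 8691 and 9593 CPM, or 1.10-fold higher (1.09 to 1.12). With cells thinned to 1500 UMIs each, 31.3% of AT2-like cells in the control and 44.3% in the mutant library held a Lyz1 UMI, and 48.8% and 58.1% without thinning. The thinned share for Lyz2 was 81.1% and 78.1%. As a background, 2.31% and 0.296% of thinned mesenchymal cells (median 6043 and 5495 UMIs) held a Lyz1 UMI. For Lyz2, 12.3% and 2.47% of thinned endothelial cells (median 4391 and 5302 UMIs) did. Some other classes outside the epithelium held more Lyz1 than the 15.8 and 3.34 CPM of mesenchymal cells. Control endothelial cells were at 42.0 and mutant T cell-like cells at 107 CPM.

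Lcn2 and Lrg1 were both higher by CPM in mutant AT2-like cells. Lcn2 had 6184 and 1826 UMIs, 658 and 1107 CPM, or 1.68-fold higher (1.60 to 1.77), and its thinned share of cells was 42.5% and 57.6%. Lrg1 had 469 and 664 UMIs although the mutant library held fewer AT2-like cells, which is 49.9 and 402 CPM, or 8.06-fold higher (7.15 to 9.09). Its thinned share was 4.56% and 29.0% (13.9% and 55.2% without thinning). In thinned mesenchymal cells the share was 0% and 0.0988%, far below that in AT2-like cells of either library.

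Sequences just upstream of the RefSeq starts are shown because NF-kB and STAT factors are known to act on Lcn2 and Lrg1. They are RefSeq windows on GRCm38.p6, trimmed to the longest run outside annotated exons, with motif matches in capitals: Lcn2 at chr2:32387798-32387850 and Lrg1 at chr17:56122002-56122196, both on the minus strand.
Lcn2: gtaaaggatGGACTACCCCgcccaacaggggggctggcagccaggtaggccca
Lrg1: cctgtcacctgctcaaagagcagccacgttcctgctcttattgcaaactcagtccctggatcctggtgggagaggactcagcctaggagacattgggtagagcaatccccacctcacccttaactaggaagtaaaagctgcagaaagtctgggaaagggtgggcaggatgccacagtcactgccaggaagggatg
The capitals in Lcn2 mark a match to the NF-kB letters GGGNNNNNCC, on either strand. Over the full windows of 250 bases, 5 of the 10 genes held that motif (Lcn2, Lrg1, Chil1, Wfdc2 and Reg3g), as did 45.8% of all 32851 windows of that length. The match of Lrg1 lies in the 55 bases next to the RefSeq start that are not shown. Those bases, and the whole Lcn2 window, lie inside the GENCODE spans of these genes given above. The STAT letters TTCNNNGAA occurred in 0 of the 10 and in 7.02% of all windows. No match says only that these letters are not in this window.

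**Figure D2:**
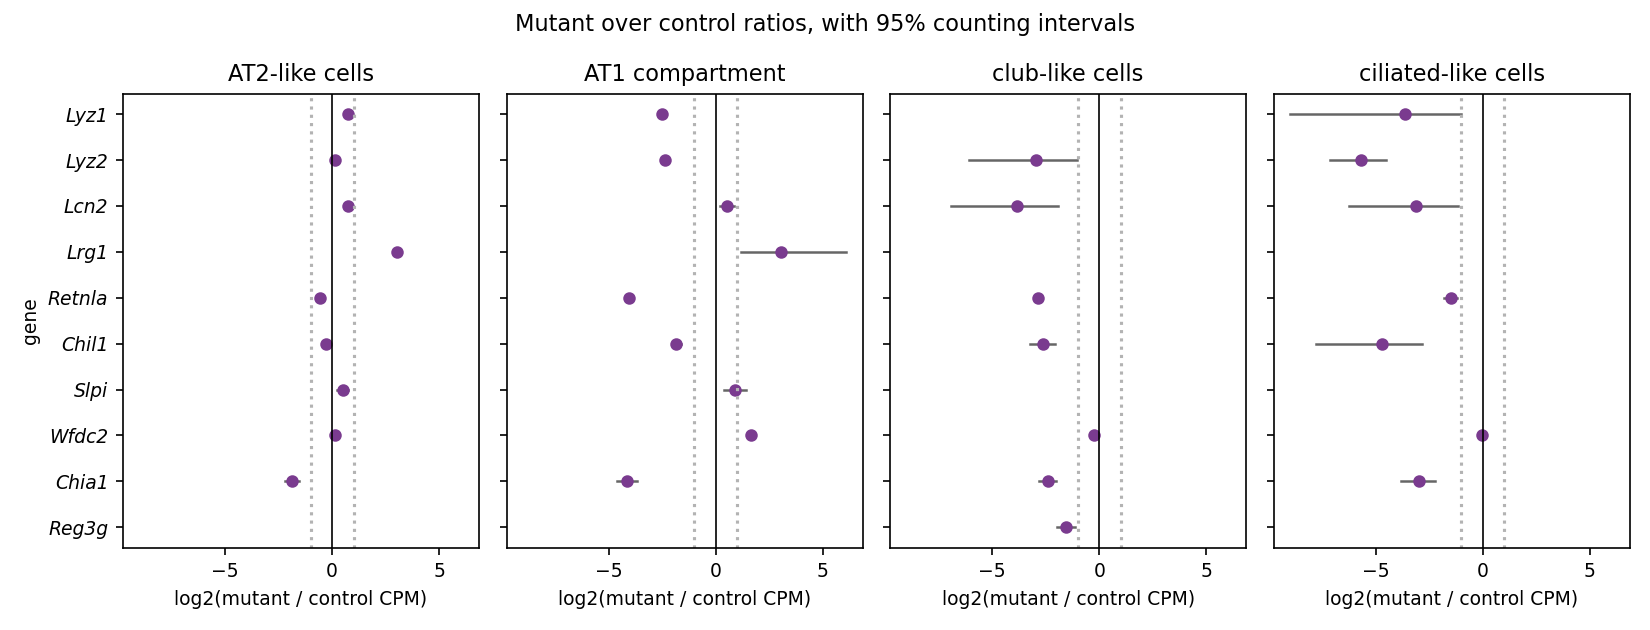
Mutant over control ratio of CPM on a log2 scale for each gene, in AT2-like cells, the AT1 compartment, club-like and ciliated-like cells; points are ratios, bars 95% counting intervals, and dotted lines mark 2-fold. Genes under 20 UMIs over both libraries in a class carry no point. In AT2-like cells Lrg1 lies at 3.01 and Chia1 at -1.85, and in the airway classes every point except that of Wfdc2 lies left of -1.

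Retnla, the chitinases and the WAP proteins showed smaller or opposite differences in AT2-like cells. Retnla was at 2335 and 1584 CPM, or 1.47-fold lower (1.42 to 1.54) in the mutant library. Its share of cells went the other way: 20.5% of control and 45.7% of mutant cells held a Retnla UMI after thinning. Before thinning the shares were 39.7% and 61.9%. In the control library 12 cells (0.978%) held 50% of the Retnla UMIs, so neither its level nor its share is read alone. Chia1 had 1787 and 87 UMIs, 190 and 52.7 CPM, or 3.61-fold lower (2.91 to 4.53), with a thinned share of 12.3% and 5.71%. Chil1, which binds chitin but does not cut it, was at 1236 and 1022 CPM, or 1.21-fold lower (1.15 to 1.27). The chitinase and its enzymatically inactive relative were therefore both lower, to unequal degrees. Slpi was at 72.0 and 101 CPM, or 1.41-fold higher (1.18 to 1.67), and Wfdc2 at 2911 and 3220 CPM, or 1.11-fold higher (1.07 to 1.14) and likewise under the shift of all genes. Nearly all AT2-like cells held Wfdc2 after thinning, 95.8% and 97.6%, against 4.63% and 4.94% of mesenchymal cells.

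The AT2-like cells of the libraries came from different clusters, so levels were also compared within each. Epithelial clusters 0, 4 and 9 held 684, 482 and 61 of the control cells and 16, 18 and 176 of the mutant cells. Cluster 9 was 4.97% of control (exact binomial interval 3.82 to 6.34) and 83.8% of mutant AT2-like cells (78.1 to 88.5). Lrg1, Retnla, Lyz1 and Lcn2 were among the 10 genes with the highest fold in cluster 9 against other epithelial cells, although none of them had entered the clustering.

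Lrg1 was higher in the mutant cells of all 3 clusters. In cluster 9 it was at 190 CPM in control and 403 in mutant cells, 2.12-fold higher, against 45.7 and 483 in cluster 0 and 30.6 and 308 in cluster 4. Chia1 was lower in the mutant cells of all 3, at 273 and 55.4 CPM in cluster 9, 203 and 65.3 in cluster 0 and 156 and 14.0 in cluster 4, the last from 2 UMIs. Retnla was lower in all 3 as well, and within cluster 9 the gap was wider than over the class, at 14021 and 1819 CPM, or 7.71-fold lower. Most mutant AT2-like cells were thus in the cluster where Retnla was highest in both libraries, and within it Retnla was lower.

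The directions of Lcn2 and Lyz1 depended on the cluster. Within cluster 9 Lcn2 was at 1263 and 1095 CPM, or 1.15-fold lower in the mutant library, while in cluster 0 it was 2.44-fold higher (525 and 1279 CPM) and in cluster 4 1.38-fold higher (751 and 1036). Chil1 was at 2165 and 1049 CPM in cluster 9, or 2.06-fold lower, against 1.21-fold lower over the class. It was lower in 14 of 14 other choices of cells and scale. Lyz1 was higher in the mutant cells of clusters 9 (3481 and 4689 CPM) and 4 (2708 and 3620) and lower in those of cluster 0 (2463 and 1768). The direction given above for Lcn2 over the class therefore did not hold within cluster 9, where most mutant cells were.

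**Figure D3:**
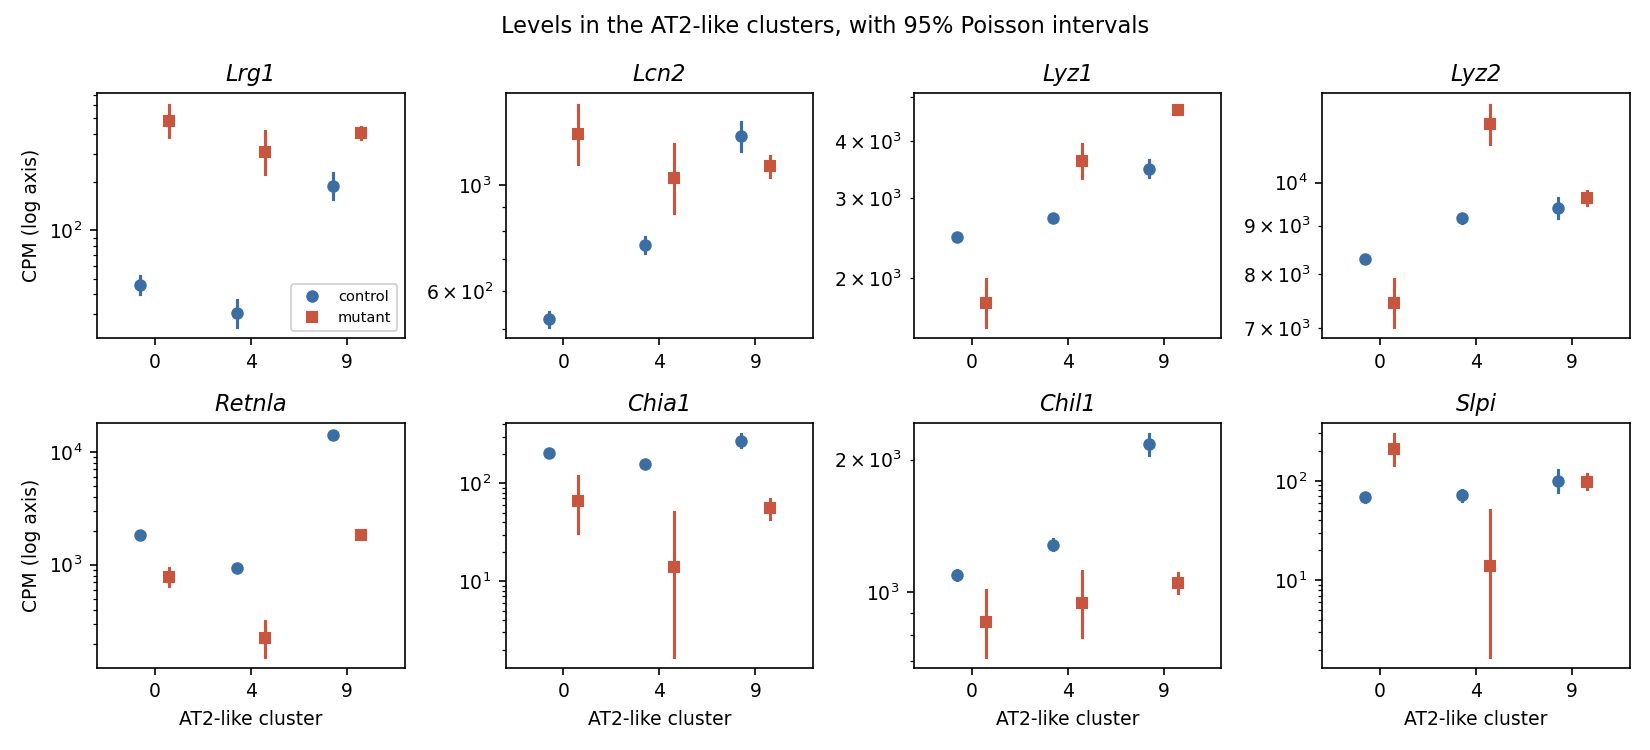
CPM on a log axis of 8 genes in AT2-like clusters 0, 4 and 9, control as circles and mutant as squares, with 95% Poisson intervals; the mutant values of clusters 0 and 4 rest on 16 and 18 cells. Lrg1 squares lie above and Chia1 and Retnla squares below the circles in each cluster, while the Lcn2 square of cluster 9 lies below its circle.

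The genes were also spread over AT2-like cells in unlike ways. Wfdc2 was carried by most cells: the cells that together held 50% of its UMIs, counted from the highest, were 307 of 1227 control cells (25.0%) and 55 of 210 mutant cells (26.2%). For Lyz2 they were 160 control and 27 mutant cells, 12.9% of the latter, and for Lyz1 44 (3.59%) and 12 (5.71%). The median AT2-like cell held 33 and 41 Lyz2 UMIs but 0 and 1 Lyz1 UMI, so the lysozyme genes, alike in sequence, were not alike in the cells that carried them.

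Retnla was the most unevenly held in the control library. Of its 21940 UMIs there, 12 cells (0.978%) held 50%, the 61 highest cells held 89.5%, and 1 cell held 1427. In the mutant library 12 cells (5.71%) held 50% of the 2614 UMIs. Lrg1 went from 28 cells (2.28%) in the control to 19 (9.05%) in the mutant library, and Lcn2 from 110 (8.96%) to 33 (15.7%). Chia1 stayed narrow, with 34 cells (2.77%) and 6 (2.86%). A difference in the level of Retnla or Chia1 over the class was thus a difference in a small number of cells.

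**Figure D4:**
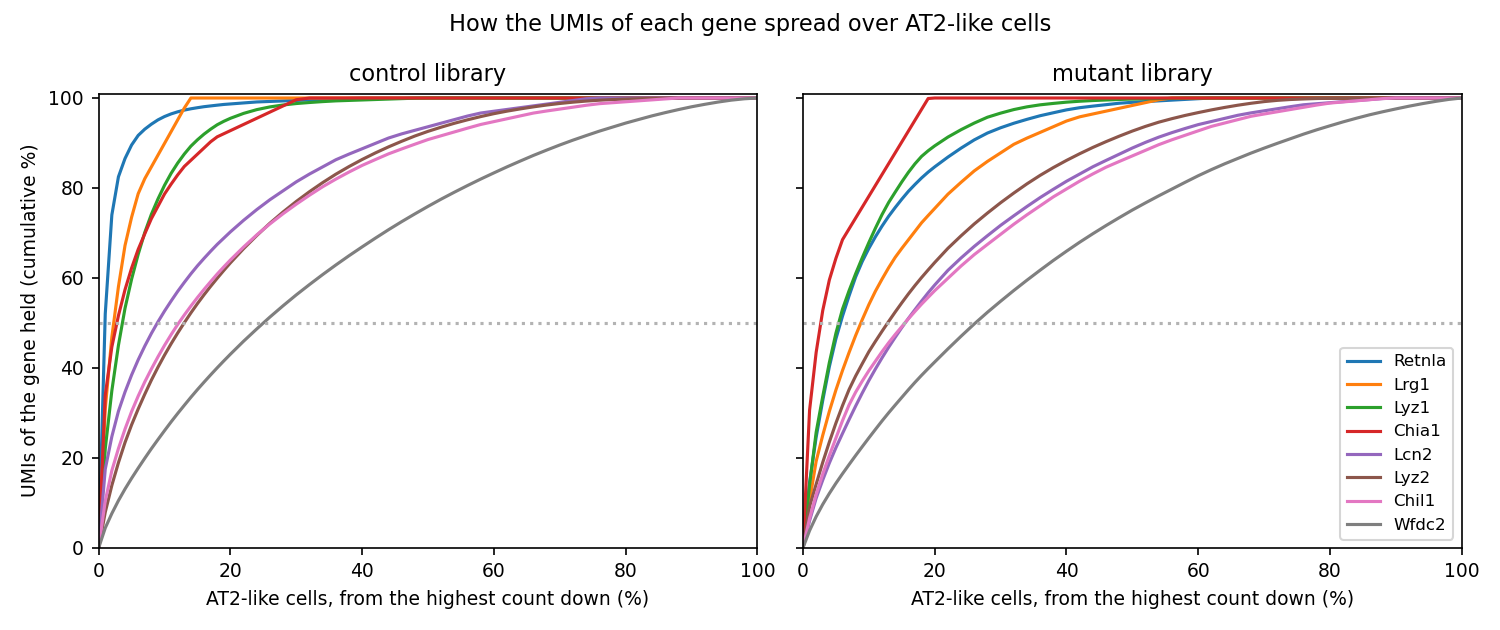
Cumulative percent of the UMIs of 8 genes (vertical axis) held by AT2-like cells ordered from the highest count down (horizontal axis, percent of cells), for each library; the dotted line marks 50%. Retnla crosses that line at 0.978% of control and 5.71% of mutant cells, and Wfdc2 at 25.0% and 26.2%.

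Cells with an Lrg1 UMI had higher levels of 5 of the 8 other measured genes in both libraries. After thinning, 56 of 1227 control and 61 of 210 mutant AT2-like cells had an Lrg1 UMI. In them Lcn2 was at 1143 CPM against 554 in the cells without Lrg1 in the control library, and at 1530 against 689 in the mutant library. Lyz2 was at 11286 against 7676 and 13333 against 7239. The same order held for Lyz1 (3012 against 2026, and 5727 against 2926) and Chil1 (1738 against 1057, and 1475 against 765). Retnla was at 4214 against 1763 and 1727 against 1360, the mutant intervals overlapping. Wfdc2 did not follow that order, at 2655 against 2778 in control cells and 3333 against 3199 in mutant cells. Chia1 was at 155 against 149 CPM in control and 43.7 against 49.2 in mutant cells. Slpi was lower in both, at 59.5 against 72.3 CPM in control and 76.5 against 103 in mutant cells, from 5 and 7 UMIs in the cells with Lrg1, and its intervals overlapped. Cells of 1 library are not replicates, and the thinned cells share their depth by construction.

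Over single thinned AT2-like cells the rank correlation of Lcn2 with Lrg1 was 0.15 in the 1227 control and 0.36 in the 210 mutant cells, and that of Lyz2 with Chil1 was 0.36 in the mutant and 0.33 in the control cells. Lyz1 with Lyz2 gave -0.07 in control and 0.01 in mutant cells. These are descriptions of cells from the same libraries in sparse counts. Cells with Retnla (251 control, 96 mutant) held more Chia1 in the control library, 340 against 99.7 CPM, while in the mutant library the values were 41.7 and 52.6.

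Upstream of Retnla and Chia1, both lower by CPM in mutant AT2-like and airway cells, the following sequences from the same RefSeq table are shown: Retnla at chr16:48842359-48842550 and Chia1 at chr3:106113132-106113228, both on the plus strand.
Retnla: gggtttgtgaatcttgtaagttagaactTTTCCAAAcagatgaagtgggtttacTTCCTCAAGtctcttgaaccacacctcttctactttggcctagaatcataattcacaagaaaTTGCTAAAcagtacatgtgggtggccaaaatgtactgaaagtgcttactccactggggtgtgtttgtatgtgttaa
Chia1: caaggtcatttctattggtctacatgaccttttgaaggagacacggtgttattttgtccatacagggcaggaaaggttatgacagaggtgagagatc
Capitals in Retnla mark 3 matches to the C/EBP letters TTNCNNAA and 1 to the core letters CTCAAG of NKX2-1 sites, the latter overlapping the middle C/EBP match, all searched on both strands. CTCAAG occurred in the 250-base windows of Retnla and Reg3g and in 13.3% of all 32851 windows. The C/EBP letters occurred in 7 of the 10 genes and in 36.8% of all windows. Chia1 held none of the 4 motifs in its 250 bases. The matches describe letters in these windows and are not binding sites.

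In the AT1 compartment, Wfdc2 was 3.15-fold higher in the mutant library, and the lysozymes, Retnla, Chil1 and Chia1 were lower. Of 9 measured genes 2 were at least 2-fold higher, where 21.7% of 12854 genes were, and 5 at least 2-fold lower, where 12.0% were. Their median log2 ratio was -1.84, against 0.18 for all genes, and Reg3g had 0 UMIs in either library. The composition of this compartment differed between the libraries, AT1-like in the control and mostly unnamed clusters in the mutant, so these are differences between those clusters as well as between libraries. Its cells were deeper in the mutant library, with a median of 12334 against 6540 UMIs.

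Wfdc2 had 4364 UMIs in control and 102947 in mutant cells of the compartment, 1032 and 3250 CPM, or 3.15-fold higher (3.05 to 3.25). Its thinned share of cells was 67.8% and 95.6%, and the unthinned share 94.6% and 99.7%. Within the compartment, control AT1-like cells (cluster 3) stood at 757 CPM. The mutant cells of clusters 1, 2, 5, 6 and 8 lay between 3144 and 3431. Cluster 7, the only one with many cells of both libraries (90 and 174), gave 2350 and 2793 CPM. Mutant clusters 1, 2, 5, 6 and 8 were therefore alike in Wfdc2 and near the 3220 CPM of mutant AT2-like cells. The few mutant AT1-like cells of cluster 3 stood lower, at 1722 CPM from 73 UMIs. That was 2.28-fold above control AT1-like cells (1.78 to 2.87). Sftpc was at 28319 CPM in the control and 2388 in the mutant compartment, at 4662 in control cluster 3, at 137981 and 29177 in cluster 7, and between 280 and 2049 in mutant clusters 1, 2, 5, 6 and 8.

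The related antiprotease Slpi and the lipocalin Lcn2 varied among the mutant clusters. Lcn2 was at 21.8 and 31.1 CPM over the compartment (92 and 984 UMIs), or 1.43-fold higher (1.15 to 1.79). Among mutant clusters with at least 20 cells it ranged from 1.86 CPM in cluster 1 to 69.2 in cluster 8, and control AT1-like cells were at 6.04. Slpi was at 8.28 and 15.4 CPM (35 and 487 UMIs), or 1.86-fold higher (1.32 to 2.70), with 3.29 in cluster 1 and 25.6 and 26.0 in clusters 2 and 8. In cluster 7 the order was the other way for both, with Lcn2 at 73.0 and 36.8 CPM and Slpi at 22.0 and 12.7. Cluster 1, the one that met the goblet-like rule, was thus the lowest of these mutant clusters for both genes. Lrg1 rested on 2 and 124 UMIs, a ratio of 8.27 (2.24 to 69.1), and at 3.91 CPM stayed far under its level in AT2-like cells.

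**Figure D5:**
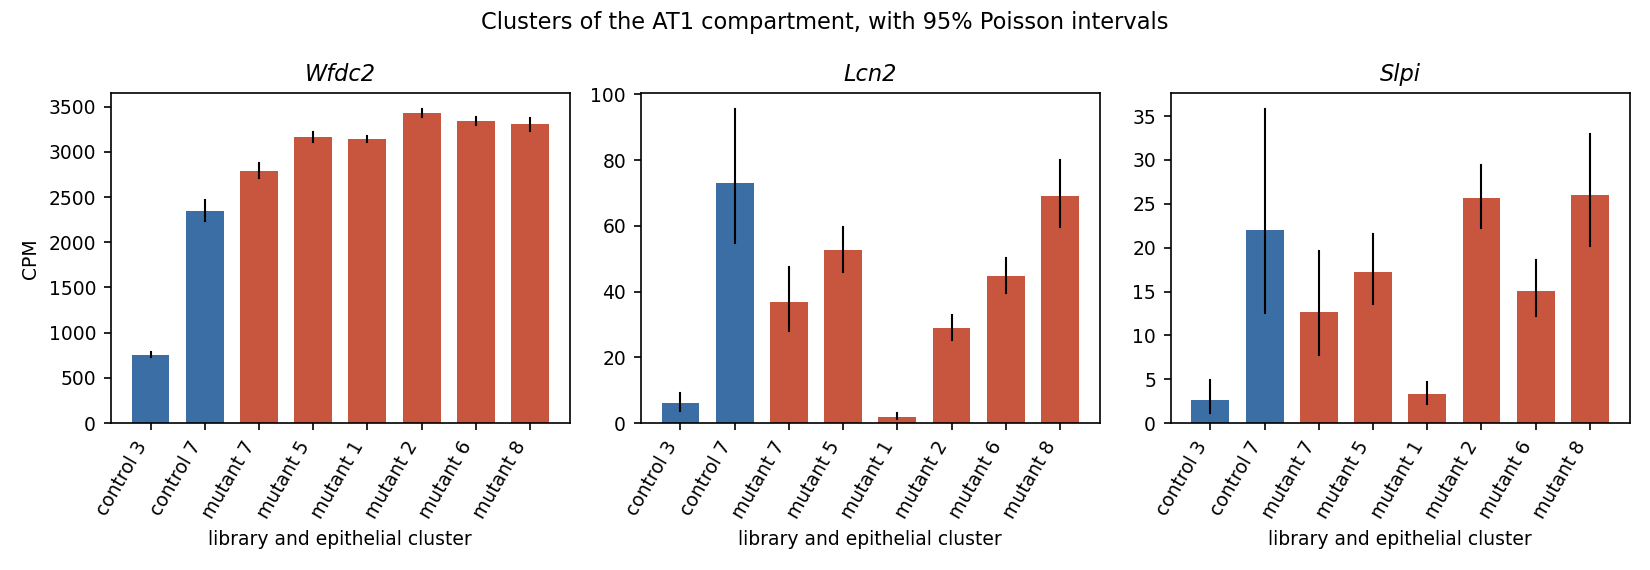
CPM (bars, from 0) of Wfdc2, Lcn2 and Slpi in the clusters of the AT1 compartment, control clusters 3 and 7 in blue and mutant clusters in red, with 95% Poisson intervals; clusters with under 20 cells in a library are not drawn. Wfdc2 lies at 757 in control cluster 3 and at 2793 or more in each mutant cluster drawn. Lcn2 and Slpi are lowest among the mutant clusters drawn in cluster 1.

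The genes that were lower in the compartment were lower together with AT2 RNA. Lyz1 was at 113 and 19.9 CPM, or 5.66-fold lower (5.02 to 6.39), and Lyz2 at 265 and 50.9, or 5.20-fold lower. Chil1 was at 61.3 and 17.1 CPM, or 3.59-fold lower, and Chia1 at 31.9 and 1.80, or 17.7-fold lower. Retnla was at 247 and 14.8 CPM, or 16.7-fold lower, but 1 control cell in cluster 2 held 557 of its 1044 control UMIs. Control AT1-like cells alone (cluster 3) stood under the control values of the compartment. They had 35.6 CPM of Lyz1, 98.6 of Lyz2, 33.1 of Retnla, 14.1 of Chil1 and 3.16 of Chia1. Against these the mutant compartment was higher for Chil1, and the gaps of the other genes were narrower. The summed level of the 12 AT2 markers, all seen in both libraries, was 31257 CPM in the control and 3102 in the mutant compartment. Per 1000 Sftpc UMIs of the same class, Lyz1 was at 3.98 in control and 8.33 in mutant cells of the compartment, and Lyz2 at 9.35 and 21.3. Both lay below their value in AT2-like cells (10.7 and 22.5 for Lyz1, 35.4 and 49.9 for Lyz2). Cluster 7 held 100170 of the 119732 control and 45937 of the 75659 mutant Sftpc UMIs of the compartment, and within it the direction was the other one, with Lyz1 at 2.73 and 2.09 (overlapping intervals) and Lyz2 at 6.93 and 4.33 per 1000 Sftpc UMIs. The direction on that scale therefore depended on the clusters counted. Wfdc2 was at 36.5 and 1361 per 1000 Sftpc UMIs, against 11.9 and 16.8 in AT2-like cells. The share of AT2 RNA in these lower values was not tested. Over 16 other choices of cells and scale the number of genes at least 2-fold higher in the compartment ran from 0 to 4 and the number lower from 0 to 8, so neither count is firm.

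In the airway, 7 of 8 measured genes were at least 2-fold lower in the mutant library, where 4.57% of 8700 genes were, and 0 were at least 2-fold higher, where 11.6% were. The median log2 ratio was -2.90, against 0.16 for all genes. By subtraction of that shift the split of all genes went to 8.54% higher and 6.85% lower, and the counts of the 8 genes did not change. Wfdc2 was the exception, at 5170 and 4457 CPM, or 1.16-fold lower (1.12 to 1.21). Lrg1 (1 and 1 UMI) and Slpi (5 and 7) were too sparse to compare. Such counts were not particular to the airway. With the shift of each class subtracted, 6 of 8 genes in endothelial cells were at least 2-fold lower, where 2.66% of 10400 genes were. In mesenchymal cells 5 of 6 were, where 2.78% of 12098 genes were. At least 2-fold higher were 1 and 0. Their median log2 ratios by CPM were -3.20 and -2.18. How much of the airway pattern is RNA from other cells was not tested.

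Levels were then compared in club-like cells alone. Retnla was at 6348 and 868 CPM, or 7.31-fold lower (6.47 to 8.30) in mutant club-like cells. Chia1 was at 931 and 176 CPM, or 5.29-fold lower, and Chil1 at 553 and 89.7, or 6.17-fold lower. Together 6 of 7 measured genes were at least 2-fold lower, where 8.72% of 3360 genes were, and 0 at least 2-fold higher, where 10.4% were. After thinning, 43.6% of control club-like cells held Chia1 and 30.8% held Chil1, against 3 of 23 mutant cells each. Unthinned, the shares were 76.9% and 43.5% for Chia1 and 69.2% and 43.5% for Chil1. For Retnla the thinned share (30.8% and 39.1%) went the other way from the level, and neither is read alone. Median depth was 22866 UMIs in control and 12260 in mutant club-like cells. Wfdc2 was at 7046 and 5946 CPM, or 1.18-fold lower, and Scgb1a1, the main club secretoglobin, was at 416497 and 383899. The lower Chia1, Chil1 and Retnla thus stood beside small differences in Wfdc2 and Scgb1a1. Of 20 other listed defence genes measured in club-like cells, 17 were lower and 3 higher. Their median log2 ratio was -0.41, against 0.09 for all 3360 genes. By at least 2-fold, 6 of the 20 were lower and 1 higher, where 8.72% and 10.4% of all genes were.

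These airway values rest on few cells. Of the 428 Reg3g UMIs of the control library, 2 of 39 club-like cells held 99.8%, and in the mutant library 1 of 23 held 55 of 56. Reg3g stood at 526 and 179 CPM, 2.94-fold lower, a difference between 3 cells in all, and without cycling cells its log2 ratio was 5.19, the other direction. For Retnla, 2 control cells (1833 and 1666 UMIs) held 67.8%; without the 3 highest cells of each library the levels were 1483 and 429 CPM, so the order stayed and the gap narrowed. Of 75 Lcn2 UMIs in control club-like cells 68 were in 1 cell, and the mutant cells held 2. For Chil1, 2 of 39 control club-like cells held 51.1% of 450 UMIs.

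In ciliated-like cells, Wfdc2 did not differ beyond counting error, at 3465 (3344 to 3589) and 3423 CPM (3254 to 3598). It was the only measured gene of 7 that was not at least 2-fold lower in the mutant library, where 6.24% of 7682 genes were lower and 8.88% higher by that much. Retnla was at 672 and 240 CPM, or 2.80-fold lower, and Chia1 at 262 and 33.4, or 7.85-fold lower, with 192 of its 234 control UMIs in 1 cell. Lyz2 had 608 and 6 UMIs, a ratio of 51.0-fold lower (23.3 to 139), with 389 of the control UMIs in 1 cell. Sftpc was 15856 CPM in control and 194 in mutant ciliated-like cells, and the 12 AT2 markers, none at 0 in either library, summed to 18835 and 738. Control Lyz2 per 1000 Sftpc UMIs was 42.9 in ciliated-like, 40.1 in club-like, 30.6 in endothelial and 41.6 in mesenchymal cells, against 35.4 in AT2-like cells. In club-like cells that ratio was far from the AT2-like value for Retnla (5045 against 9.52), Chia1 (740 per 1000 Sftpc UMIs), Wfdc2 (5600), Chil1 (440) and Reg3g (418), and Sftpc there was 1258 and 67.2 CPM. Lyz1 in control ciliated-like cells was at 1.76 per 1000 Sftpc UMIs (from 25 UMIs), against 13.2 in endothelial, 8.64 in mesenchymal and 10.7 in AT2-like cells. Mutant Lyz2 was at 69.0 in ciliated-like and 95.2 in club-like cells, from 6 and 2 UMIs, against 221 in endothelial and 201 in mesenchymal cells. Of the 139 mutant endothelial Lyz2 UMIs, 83 were in 1 cell. Control Lyz2 thus lay between 30.6 and 42.9 in ciliated-like, club-like, endothelial and mesenchymal cells, around its AT2-like value. It did not in control AT1-like cells, at 21.1 (18.9 to 23.5), or in the AT1 compartment, at 9.35, both below the AT2-like value. Control Lyz1 and mutant Lyz2 varied more over these classes. The share of AT2 RNA in the airway values of the lysozymes was not tested.

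Outside the epithelium, Lyz2 in alveolar macrophage-like cells (40 and 44 cells) was at 4745 and 13157 CPM, or 2.77-fold higher (2.58 to 2.98) in the mutant library, and every one of those cells held it after thinning. In the myeloid cluster (47 and 36 cells) it was at 21619 and 23304. Slpi was 3.18-fold higher in macrophage-like cells (1.94 to 5.44) and 2.47-fold lower in the myeloid cluster (1.63 to 3.84). Lcn2 in the myeloid cluster was at 395 and 1451 CPM, or 3.67-fold higher (2.92 to 4.65), but 2 cells held 82.0% of its control and 73.5% of its mutant UMIs. The 10 neutrophil markers summed to 29296 and 42030 CPM in this cluster and the 9 monocyte markers to 7812 and 7302, and their part in the Lcn2 and Slpi values was not tested.

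Endothelial cells held Lrg1, a gene known from venules, at 7.63 and 17.9 CPM (22 and 52 UMIs), or 2.35-fold higher (1.40 to 4.06) in the mutant library. It was highest in endothelial cluster 6 (34 and 36 cells), led by Fabp4, Slc6a2 and Vwf, at 40.3 and 82.1 CPM. Retnla in that lineage had 792 control UMIs and 3 mutant UMIs, and 718 of the former were in 1 cell of cluster 6 that also held 1938 Sftpc UMIs. An unnamed immune cluster with C1qa and Mgl2 held 343 Retnla UMIs in 21 control cells, 242 and 94 of them in 2 cells with 8 and 16 Sftpc UMIs, and 22 in 42 mutant cells.

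For each gene the 3 genes most like it were taken by Pearson correlation of log2(CPM + 1) over 20 points, 10 classes in each of 2 libraries, among 12996 genes. These points share libraries and depth, and the values are descriptions. Retnla was nearest to Chia1 (0.95), and Chia1 to Mia (0.95), Retnla and Hnmt (0.94). Lyz1 was nearest to Sftpc (0.86) and Lyz2 to Soat1 (0.81), and the lysozymes reached 0.58 with each other. Wfdc2 was nearest to Tmem30b (0.95) and Muc1 (0.95), Reg3g to Scgb3a1 (0.96) and Clca1 (0.91), Chil1 to Cxcl15 (0.88), Slpi to Cyp4v3 (0.88), Lcn2 to Npc2 (0.81) with Chil1 (0.79) next, and Lrg1 to Rab27a (0.77). Retnla and Chia1 were the only pair of these 10 genes in which each was among the 3 nearest of the other.

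Of 69 other secreted defence genes in 7 lists, 68 were in the table. In AT2-like cells 22 were measured, 3 at least 2-fold higher and 3 at least 2-fold lower, where 7.46% and 4.83% of all genes were. The acute-phase protein Hp was at 93.0 and 250 CPM (2.68-fold higher), the cystatin Cstb at 221 and 442 (2.00-fold higher), and Saa3 had 83 and 0 UMIs, at least 4.86-fold lower against a floor of 3 counts over the class. Also past 2-fold higher was Wfdc1 (17 and 12 UMIs), and the other genes lower were the secretoglobins Scgb1a1 (324 and 59.4 CPM) and Scgb3a2 (249 and 3 UMIs); Wfdc1 and Scgb1a1 were named after their values were seen. Of the 4 acute-phase genes measured, 2 were higher and 2 lower. In the AT1 compartment 30 were measured, 13 at least 2-fold higher and 6 lower, where 21.7% and 12.0% of all genes were. In the airway 25 were measured, with 2 and 6, where 11.6% and 4.57% were. The 2 higher in the airway were Cp (38.7 and 78.7 CPM) and Pigr (14 and 15 UMIs), the latter named after its values were seen. Among the 6 lower, Scgb3a1 was at 226 and 14.4 CPM (15.7-fold lower), Chil4, a chitinase-like relative of Chil1, had 91 and 0 UMIs (at least 13.5-fold lower) and the BPI-fold protein Bpifb1 97 and 0 (at least 14.4-fold lower).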

How the data were processed

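The authors deposited 1 matrix a library of unnormalised UMI counts by gene and barcode; the submitters' processing notes name Cell Ranger, Seurat and the mm10 genome, without versions or settings. Cells with at least 500 genes and under 10% mitochondrial UMIs passed (4141 control, 4418 mutant). Doublets were scored against simulated pairs and 67 control and 89 mutant cells removed (1.62% and 2.01% of those that passed; 37.2% and 40.9% of simulated pairs were found), with 72 and 85 cells of mixed lineage. Cells were clustered over both libraries (2000 variable genes, 30 components, 20 neighbours, Leiden resolution 1) with python-igraph 0.11.9 and leidenalg 0.10.2, first by lineage and then within it, leaving out the described genes, the other listed defence genes and cell cycle genes. A cluster took a name from its marker list (mean log2 fold of at least 1.5); the names this rule gave epithelial cluster 1 (goblet-like) and the myeloid cluster (neutrophil-like) were set aside after their genes were seen. UMIs were summed by class and library and given as CPM with exact 95% Poisson intervals, ratios with exact conditional binomial intervals, and shares with Clopper-Pearson intervals after thinning to 1500 UMIs; a gene needed 20 UMIs in a class, and the floor for 0 is 3 counts over the class. Intervals cover counting error only, and in sums over few cells the spread between cells is larger. No test was run, since each group is 1 library, and no p-value is given. Python 3.11.15, NumPy 2.4.6, SciPy 1.17.1, pandas 2.3.3, scikit-learn 1.9.0, scikit-image 0.26.0, Biopython 1.88 and matplotlib 3.10.9 were used, and the ratio code was tested on simulated data.

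Named are all 10 genes, of each other list the gene with the highest CPM and those with the largest and smallest ratio (at least 50 UMIs), and the 3 genes most like each member with at least 100 UMIs. The 7 other lists are collectins and secretoglobins, BPI-fold and LPS-binding proteins, other antimicrobial proteins, chitinase-like and resistin-like relatives, acute-phase proteins, protease inhibitors and WAP relatives, and mucosal transport and mucins. The genes and lists were chosen with earlier results of these data known. Alternatives changed doublet removal, the genes clustered, clustering by library, resolution, the mitochondrial limit, classing by cell, scaling, free RNA, cycling cells and the UMI minimum. RefSeq upstream windows matched 10 of 10 genes by symbol; protein sequences are not used here.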

Additional observations from a re-analysis of the deposited data

Results flagged for a closer look

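Some genes were higher in the mutant library in 1 epithelial class and lower in another, with a single library behind each value, and these differences were not tested. The log2 ratio of Lyz1 in AT2-like cells exceeded that in the AT1 compartment by 3.22 and that in airway cells by 4.60, and for Lyz2 the gaps were 2.52 and 5.32. In the compartment and the airway both lysozymes were lower together with Sftpc (28319 and 2388 CPM in the compartment, 15856 and 194 in ciliated-like cells). The log2 ratio of Lcn2 exceeded that in airway cells by 4.37 in AT2-like cells and by 4.13 in the compartment, where the airway value rests on 110 control UMIs, 68 of them in 1 cell. For Wfdc2 the log2 ratio in the compartment exceeded that in airway cells by 1.87.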

How the results depend on the processing

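In AT2-like cells Lrg1 was at least 2-fold higher and Chia1 at least 2-fold lower in 14 of 14 alternatives, with log2 ratios of 1.08 to 3.33 and -2.30 to -1.64. The number at least 2-fold higher went from 1 to 2 without cycling cells, and the number lower from 1 to 3 within the AT2-like cluster with most mutant cells and to 2 without that cluster (a split chosen after seeing the data). Lyz2 turned lower in 2 of 14, Lcn2, Slpi and Wfdc2 each in 1. In the AT1 compartment Wfdc2 was higher in 16 of 16 (log2 0.31 to 2.11). There the number at least 2-fold higher, 2 in the report, was 4 with the listed genes kept in clustering, at Leiden resolution 0.5, with mitochondrial shares under 5%, with cells classed singly and, chosen after seeing the data, without epithelial cluster 7; it was 1 at resolution 2, in AT1-like clusters alone and without cycling cells, and 0 when libraries were clustered separately or all epithelial cells were summed. The number lower, 5 in the report, was 8 in the latter 2 settings, 3 with mitochondrial shares under 5% and 0 in AT1-like clusters alone. The median log2 ratio was -5.76 with each library clustered alone, and turned to 0.23 with mitochondrial shares under 5% and 0.35 in AT1-like clusters alone, where 6 mutant cells left 2 genes with a value. Lrg1 turned to -3.19 with separate clustering of the libraries and -0.41 over all epithelial cells, and Chil1 to 0.23 with mitochondrial shares under 5%. Lcn2 stayed higher in only 11 of 15 alternatives (log2 -3.92 to 2.17) and Slpi in 12 of 15 (-1.82 to 3.39). Both were lowest with separate clustering of the libraries, so their direction in the compartment is not firm. In airway cells the number lower was 6 or 7 in 15 of 15 alternatives. The number higher went from 0 to 1 with doublets kept, without cycling cells and with at least 1 UMI, and Reg3g turned to 5.19 without cycling cells. Apart from the smaller samples named, the cause was not tested. Clustering each library alone gave no value for AT2-like cells, and a bound from a gene at 0 that left the direction unset gave none. The number of members whose thinned share of cells was higher was 7, 4 and 3 in AT2-like cells, the compartment and the airway, and 5, 4 and 3 at 2000 UMIs. No paired analysis was possible because each group has 1 library.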

Other observations

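Among the other listed genes, those for mucins and mucosal transport stood out in the AT1 compartment, where 5 of 5 measured were at least 2-fold higher in the mutant library, beside 21.7% of all genes. Muc1, a membrane mucin, was at 72.8 and 532 CPM, or 7.31-fold higher (6.53 to 8.20). Muc4 had 0 and 653 UMIs, at least 29.0-fold higher, Muc20 0 and 169 (at least 7.52-fold) and the gel-forming mucin Muc5b 0 and 160 (at least 7.12-fold). Pigr, which carries immunoglobulin across epithelium, had 1 and 398 UMIs, a ratio of 53.1 (9.48 to 2103). Cluster 1, with 573 of the 2272 mutant cells, met the marker rule for goblet-like cells, whose list holds Muc5b, and was left unnamed. In AT2-like cells Muc1 was at 506 and 499 CPM.

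Pglyrp1, Cp, Cfb and Wfdc15b were also near 0 in the control compartment. They likewise reached the minimum of 20 UMIs only through the mutant library. Pglyrp1, a peptidoglycan-binding protein, had 14 and 2049 UMIs, 3.31 and 64.7 CPM, or 19.5-fold higher (11.6 to 35.8), against 11.9 and 13.9 CPM in AT2-like cells. Ceruloplasmin (Cp) had 0 and 300 UMIs (at least 13.3-fold higher), complement factor B (Cfb) 0 and 101 (at least 4.49-fold) and the WAP gene Wfdc15b 0 and 199 (at least 8.85-fold). The collectin Sftpd was at 417 and 887 CPM, or 2.13-fold higher, while its relative Sftpa1 was at 958 and 83.1, or 11.5-fold lower, beside the lower AT2 markers there.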
